A study of Mus musculus with 16 samples.

Results

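The comparison described here is Fgf21-knockout (Fgf21-KO) against wild-type (WT) epididymal white fat of mice that received vehicle. Fgf21-KO and WT mice both carried a mixed c57b6/sv129 background, were 4 to 5 months old and had been made obese by 10 weeks of high fat diet, with vehicle over the last 14 days. The 2 further groups of the study, Fgf21-KO and WT mice given rosiglitazone at 10 mg/kg over the last 2 weeks, entered the same fit and were used to look up the same differences in other animals. Each group holds 2 pools of RNA from 2 mice, and each pool was put on 2 Illumina MouseRef-8 bead arrays, which carry short probes for known mouse transcripts. The comparison therefore uses 4 of the 8 pools and 8 of the 16 arrays, and n = 2 pools per group throughout. How the Fgf21 deletion was made, and in which cells, is not given in the sources used here. Of 25697 probes, the 13759 detected on at least 4 arrays were tested, and they stood for 9543 genes.

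Fgf21 encodes a circulating fibroblast growth factor made in liver and in fat. It acts through Fgfr1, a receptor tyrosine kinase, together with the co-receptor beta-klotho (Klb), and switches on the ERK kinase pathway in adipocytes. In white fat, Fgf21 is a target of the nuclear receptor PPARγ, the receptor of rosiglitazone. White fat of obese animals also holds macrophages, mast cells, vessels and connective tissue, so a bulk difference in a transcript can come from fewer cells of a type or from less RNA per cell, and the arrays cannot tell these apart.

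The values below are log2 signals after background correction and quantile normalization, and a difference is Fgf21-KO minus WT with its standard error (SE) from one limma fit over all 8 pools. No probe passed the Benjamini-Hochberg adjusted threshold of 0.05 (0 of 13759, 0.0%), and the lowest adjusted p was 0.108. At an unadjusted p under 0.05, 655 probes (4.76%) were called, of which 320 were higher in Fgf21-KO (2.33%) and 335 were lower (2.43%). Both Fgf21-KO pools lay on one side of both WT pools for 42.9% of the probes. With median scaling in place of quantile normalization, the calls at an unadjusted p under 0.05 were 179 higher and 388 lower. Leaving out either WT rosiglitazone pool, which share in the estimate of the spread, brought the calls to 649 higher and 715 lower. Without the second WT vehicle pool the higher calls were 188, and without any 1 of the 4 vehicle pools the lower calls were 200 to 223. The differences were small for most probes, with 76.0% of them under 0.25 in size and a median SE of 0.191. In 101 probes the difference exceeded 1 in size, 58 of them higher and 43 lower in Fgf21-KO. The single genes below are therefore given with values and not as calls.

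**Figure D1:**
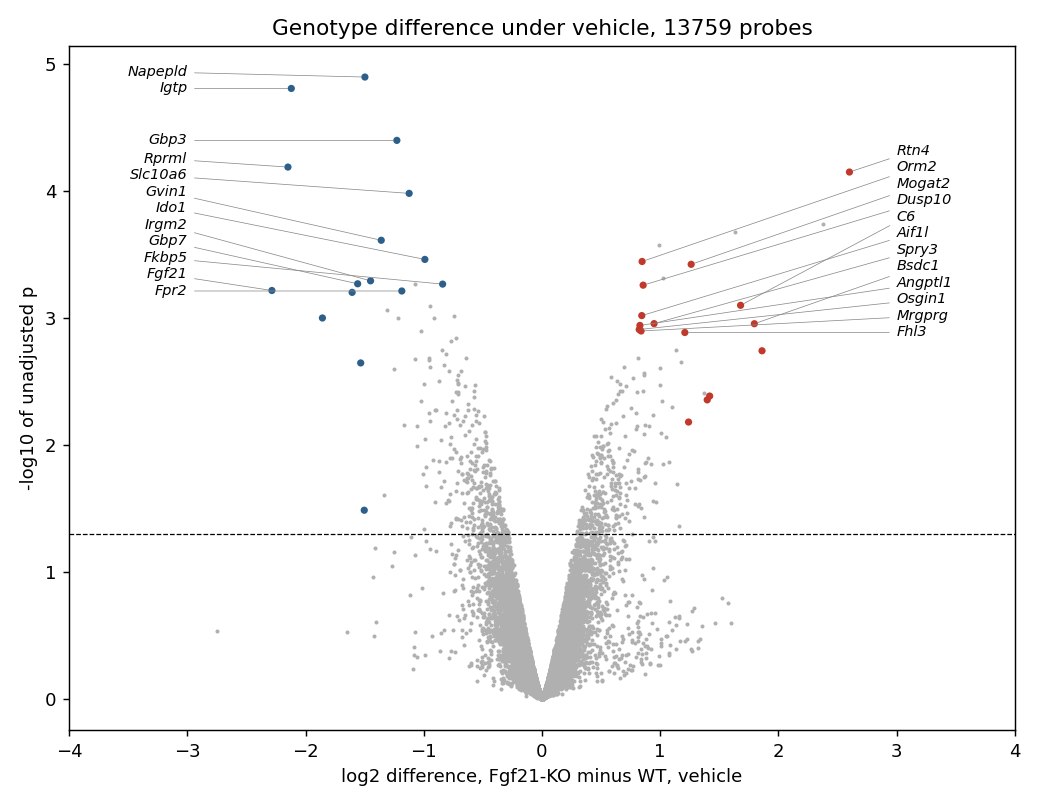
The horizontal axis gives the log2 difference, Fgf21-KO minus WT under vehicle, and the vertical axis -log10 of the unadjusted limma p, with 1 point for each of 13759 probes and a dashed line at 0.05. Red and blue points are the leading genes higher and lower in Fgf21-KO, and the 12 of smallest p on each side are named, from Napepld and Igtp among the lower to Rtn4 among the higher.

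The arrays of the 2 genotypes differed in measures that go with no gene. Median raw signals ran from 147 to 152 on the Fgf21-KO vehicle arrays and from 174 to 184 on the WT vehicle arrays. Over all 16 arrays, the mean number of beads behind a probe was 39.4 to 40.7 on Fgf21-KO arrays and 36.0 to 38.9 on WT arrays, with no overlap, and an effect of chip cannot be told apart from genotype. The median SD between the pools of a group was 0.0957 in the Fgf21-KO vehicle group and 0.110 in the WT vehicle group. It was 0.108 in the Fgf21-KO rosiglitazone group and 0.230 in the WT rosiglitazone group, whose first pool stood apart from all others. That pool lay at 68.5 on the first component of the 8 pools, where the other 7 lay between -16.8 and -0.298. Its smooth muscle markers had a list median of 12.49, against 8.46 to 8.86 in the other pools. These pools enter the spread behind every SE and all differences under rosiglitazone. Adipocyte markers, the check of the tissue label, had a list median of 13.30 and 13.40 in Fgf21-KO and 13.52 and 13.43 in WT.

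Fgf21 itself read 5.17 and 5.58 in the Fgf21-KO pools and 7.53 and 7.79 in the WT pools. It was detected on 1 of 4 Fgf21-KO arrays and on 4 of 4 WT arrays, and the difference was -2.28 (SE 0.38, limma adjusted p = 0.394). The groups did not overlap, and the same difference under rosiglitazone was -2.39. The co-receptor Klb read 10.01 and 9.84 in Fgf21-KO and 10.00 and 9.63 in WT, a difference of 0.11 (SE 0.19). For Fgfr1 the difference was 0.19 (SE 0.45). Among 12 tested genes of the receptor and its ERK feedback, 1 besides Fgf21 had an unadjusted p under 0.05, beside 4.76% of all probes. This was Dusp4, a phosphatase that switches off ERK-type kinases, at 10.06 and 10.00 in Fgf21-KO against 10.45 and 10.57 in WT (difference -0.48, SE 0.13). Dusp6, the ERK phosphatase of the cytoplasm, differed by -0.33, short of that p.

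The interferon-inducible GTPases lay lowest of all lists relative to WT. These large GTPases of the IRG and GBP families are switched on by interferons and act against pathogens inside cells, and their transcription runs through promoter elements bound by interferon-activated factors. The promoter windows of 4 of them are printed to show these letters, from RefSeq, reaching from 250 bases before to 50 after the start. Capitals mark the core of the interferon-stimulated response element, GAAANNGAAA, and the gamma-activated site, TTCNNNGAA, on either strand, and overlapping matches run together.
Igtp promoter, GRCm38.p6 chr11:58199306-58199605, plus strand: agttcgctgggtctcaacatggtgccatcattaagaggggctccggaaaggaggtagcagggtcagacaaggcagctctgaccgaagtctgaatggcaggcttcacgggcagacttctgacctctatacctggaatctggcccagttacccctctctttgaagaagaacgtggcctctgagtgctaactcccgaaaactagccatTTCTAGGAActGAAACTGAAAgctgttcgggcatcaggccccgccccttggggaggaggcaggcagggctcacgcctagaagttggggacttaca
Irgm2 promoter, GRCm38.p6 chr11:58214727-58215026, plus strand: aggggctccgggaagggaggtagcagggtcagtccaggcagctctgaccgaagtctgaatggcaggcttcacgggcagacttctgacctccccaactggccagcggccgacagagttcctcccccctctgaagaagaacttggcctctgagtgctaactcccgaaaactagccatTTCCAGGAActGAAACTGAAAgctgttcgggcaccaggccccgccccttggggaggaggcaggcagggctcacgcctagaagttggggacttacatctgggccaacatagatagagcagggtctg
Gbp3 promoter, GRCm38.p6 chr3:142559794-142560093, plus strand: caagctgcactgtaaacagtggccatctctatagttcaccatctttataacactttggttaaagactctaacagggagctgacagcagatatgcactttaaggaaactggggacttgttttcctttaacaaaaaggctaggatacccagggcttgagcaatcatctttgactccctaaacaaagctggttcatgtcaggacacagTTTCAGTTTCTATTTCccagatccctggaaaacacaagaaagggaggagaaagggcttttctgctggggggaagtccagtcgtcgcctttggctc
Gbp7 promoter, GRCm38.p6 chr3:142530086-142530385, plus strand: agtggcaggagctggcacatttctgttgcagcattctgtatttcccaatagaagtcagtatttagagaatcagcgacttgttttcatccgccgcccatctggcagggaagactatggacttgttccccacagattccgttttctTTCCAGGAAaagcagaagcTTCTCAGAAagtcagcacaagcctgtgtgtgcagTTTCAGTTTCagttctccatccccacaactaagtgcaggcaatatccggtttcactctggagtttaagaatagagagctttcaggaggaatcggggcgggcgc
In Igtp the gamma-activated letters begin at base 206 of the window and the response element core at base 217. The Irgm2 window has the same order, at bases 176 and 187. The Gbp3 window holds 2 overlapping response element cores, read on the opposite strand, and its second RefSeq window holds none. Of the 7 tested GTPase genes with a window, 6 held the response element core and 3 held the gamma-activated letters. The core also lay in the windows of Irgm1 and Gbp2, not printed, whose list probes differed by only 0.10 and -0.18 under vehicle. The window of Ifi47, which differed by -1.22, held neither motif. The 7 genes have 8 windows, of which 6 held the core and 3 the gamma-activated letters. Among all 32851 promoter windows the shares were 3.44% and 8.30%. A match describes these letters and not a bound site.

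Of the 9 GTPases tested, 8 were lower in Fgf21-KO, and their median difference was -1.23, beside -0.005 for all probes. In 7 of the 9 the unadjusted p was under 0.05, all lower, against 2.43% of all probes. The list was known from earlier work on these arrays, so this count is no independent evidence. Igtp, an IRG protein that sits on internal membranes, read 8.67 and 8.18 in Fgf21-KO pools and 10.4 and 10.68 in WT pools (difference -2.12, SE 0.19, limma adjusted p = 0.108). Its linear signal in Fgf21-KO was 0.230 of that in WT. Gbp3 read 9.19 and 9.16 in Fgf21-KO and 10.32 and 10.48 in WT, and its other probe differed by -1.03 beside -1.23. Irgm2, a regulator of the other IRG proteins, read 9.29 and 8.76 in Fgf21-KO and 10.35 and 10.60 in WT (difference -1.45, SE 0.23). In each of these genes the 2 genotypes were apart by more than the distance between pools. Pools without overlap were part of how these genes were chosen. Gbp7 differed by -1.56 (SE 0.25), Gvin1 by -1.36 (SE 0.19), Ifi47 by -1.22 (SE 0.22) and Gbp10 by -0.57 (SE 0.13). The list probe of Gbp2 differed by -0.18 (SE 0.12) and that of Irgm1 by 0.10 (SE 0.14), both short of that p. The probes of Irgm1 disagree, since its other probe differed by -0.81 (SE 0.16), with an unadjusted limma p under 0.05 and detection on all 8 vehicle arrays. The other Gbp2 probe differed by -0.50 (SE 0.42).

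Under rosiglitazone the same GTPases were not apart in this way. Igtp read 8.30 and 8.36 in Fgf21-KO pools with rosiglitazone and 8.16 and 8.05 in WT pools with rosiglitazone, so the WT vehicle pools were the ones that stood above the other 3 groups. The median difference of the 9 genes was 0.19 under rosiglitazone, and Gbp10 differed by 0.73 there. Of the 9, 7 had an interaction (the genotype difference under rosiglitazone minus that under vehicle) at an unadjusted p under 0.05, where 4.95% of all probes did. The interaction of Igtp was 2.35 (limma adjusted p = 0.502). No interaction passed the adjusted threshold (0 of 13759, 0.0%). The 2 differences use separate pools, but the interaction shares its vehicle values with the difference above.

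**Figure D2:**
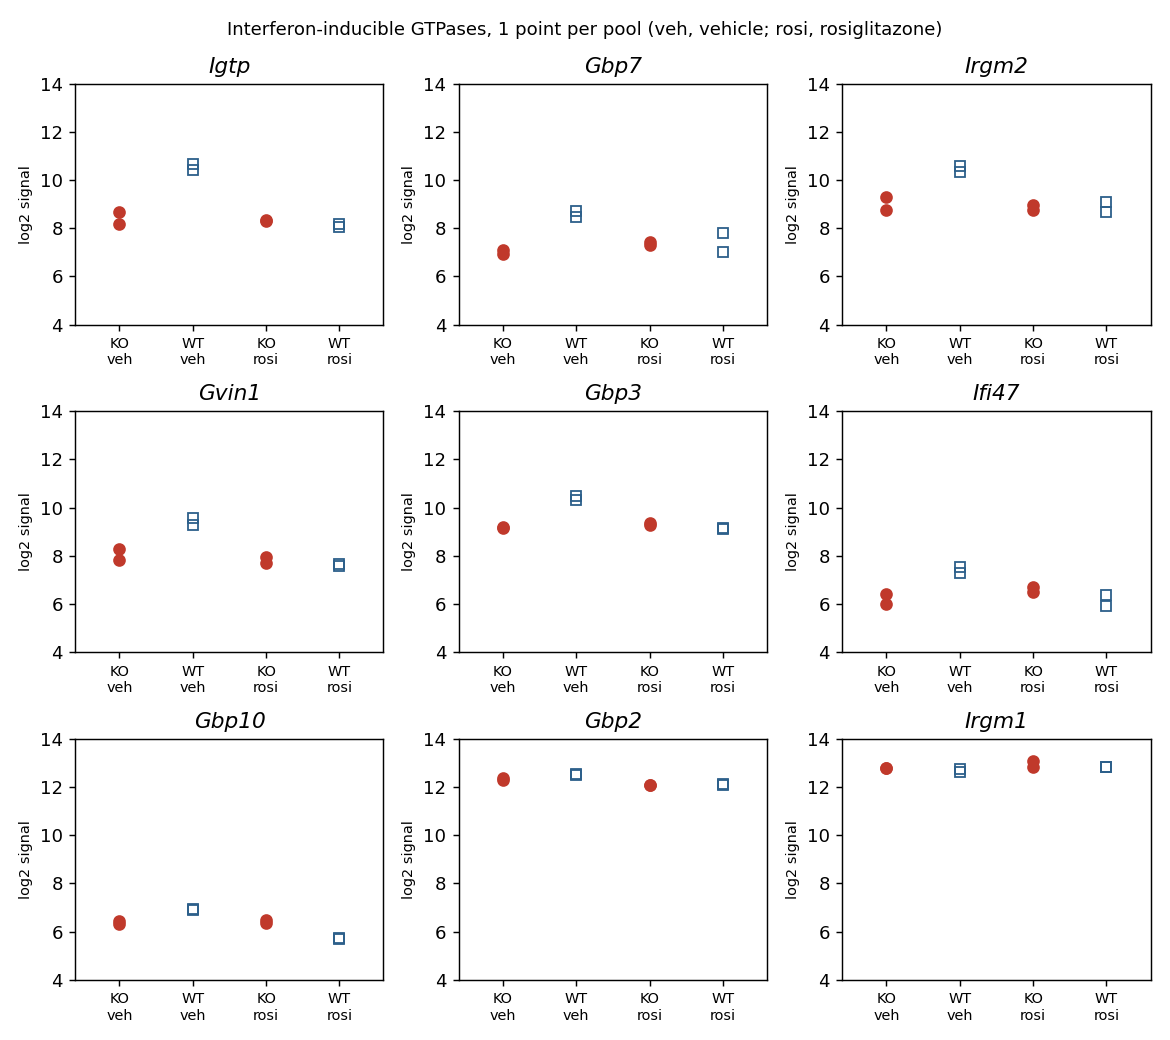
Each panel is 1 GTPase, with the log2 signal on the vertical axis, 1 point per pool, and the groups from left to right Fgf21-KO and WT under vehicle, then Fgf21-KO and WT under rosiglitazone. In Igtp the WT vehicle pools (10.4 and 10.68) stand above the Fgf21-KO vehicle pools (8.67 and 8.18), while the plotted probes of Gbp2 (-0.18) and Irgm1 (0.10) show smaller differences, and the other Irgm1 probe, not plotted, differed by -0.81.

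Other interferon lists lay closer to WT than the GTPases. Of 19 genes of the type I interferon response, 15 were lower in Fgf21-KO and 4 higher (median -0.24). At an unadjusted p under 0.05, 6 were lower and 1 was higher, beside 2.43% and 2.33% of all probes. Oas2, an enzyme that senses double-stranded RNA, read 7.005 and 7.011 in Fgf21-KO and 7.87 and 7.77 in WT. Its relative Oasl2 differed by -0.95 (SE 0.24), with the second probe at -0.77. Zbp1, a sensor of Z-form nucleic acids, went the other way at 0.45 (SE 0.13). In the interferon gamma pathway 2 of 12 genes were lower and 1 was higher at that p. Nlrc5, the activator of class I antigen presentation genes, differed by -0.58 (SE 0.14), and the factor Irf1 by -0.39 (SE 0.13), with its other 4 probes also lower. Irf8, a factor of myeloid cells, differed by 0.46 (SE 0.19). Of 20 antigen presentation genes, 11 lay above and 9 below WT (median 0.03), and 3 were lower and 0 higher at that p, among them the proteasome genes Psme1 (-0.48) and Psmb9 (-0.46). Ido1, an interferon-induced enzyme that breaks down tryptophan, differed by -0.99 (SE 0.15) but was detected on only 1 of 4 Fgf21-KO arrays. Cxcl9, a T cell attracting chemokine induced by interferon gamma, read 10.16 and 10.19 in Fgf21-KO and 11.04 and 11.46 in WT.

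Beyond the interferon genes, the lower side was led by Napepld, the enzyme that releases anandamide and related N-acylethanolamines from membrane lipids. Napepld read 7.65 and 7.56 in Fgf21-KO and 9.20 and 9.01 in WT (difference -1.50, SE 0.13, limma adjusted p = 0.108), and its other probe differed by -0.71. Rprml read 5.53 and 5.60 in Fgf21-KO and 7.90 and 7.53 in WT, and was detected on 1 of 4 Fgf21-KO arrays. Slc10a6, a transporter of steroid sulfates, read 9.18 and 9.28 in Fgf21-KO and 10.37 and 10.34 in WT, with its other probe at -1.07 beside -1.12. Fkbp5, a co-chaperone of steroid receptors that glucocorticoids induce, read 8.95 and 9.01 in Fgf21-KO and 9.71 and 9.93 in WT. All 4 genes had pools of a genotype closer to each other than to the other genotype. Pools without overlap were part of how they were chosen. Fpr2, a receptor for formylated peptides on myeloid cells, differed by -1.19 (SE 0.20), and Thg1l, which edits a transfer RNA, by -1.53 (SE 0.32). Lcn2, an acute phase carrier of iron-binding siderophores, read 9.64 and 9.25 in Fgf21-KO and 10.62 and 11.28 in WT, and its SE of 0.56 was the widest among the 16 lower leading genes. For Trim11, a ubiquitin ligase, and Gnl2, a nucleolar GTPase, no Fgf21-KO array was above background, so their differences are bounds. Taking the WT mean over the lowest signal called above background, Trim11 was at least 2.34-fold and Gnl2 at least 2.04-fold lower in Fgf21-KO. A second Gnl2 probe differed by -0.23.

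The higher side was led by a probe for Rtn4, a reticulon that shapes the endoplasmic reticulum and is known in nerves as Nogo. It read 7.89 and 7.48 in Fgf21-KO and 5.04 and 5.13 in WT, where no array was above background, so it was at least 4.18-fold higher in Fgf21-KO. The 2 other Rtn4 probes differed by 0.00 and -0.12, so the probes of this gene disagree. Mogat2, which joins an acyl group to monoacylglycerol on the way to triglyceride, read 9.38 and 9.13 in Fgf21-KO and 8.08 and 7.91 in WT (difference 1.26, SE 0.19), with the other probe at 0.87. Orm2, an acute phase glycoprotein, read 8.44 and 8.32 in Fgf21-KO and 7.61 and 7.45 in WT. Dusp10, a phosphatase of the JNK and p38 kinases, differed by 0.86 (SE 0.14), with the other probe at 1.02. C6, a component of the complement membrane attack complex, read 9.35 and 8.65 in Fgf21-KO and 7.18 and 7.45 in WT, and its other probe differed by 1.37. In each of these genes both Fgf21-KO pools lay above both WT pools, which was part of how they were chosen. Bsdc1 differed by 1.80 (SE 0.33), Cyp2e1, a cytochrome P450 that oxidises ethanol and acetone, by 1.86 (SE 0.38), and Serpina1a, a protease inhibitor, by 1.24 (SE 0.32). Aif1l (0.84), Spry3 (0.95), Angptl1 (0.83), Osgin1 (0.82) and Mrgprg (0.84) had SEs of 0.15 to 0.17. Fhl3 and Acoxl were above background on no WT array and were at least 1.57-fold and 2.02-fold higher. Slitrk5 differed by 1.40 (SE 0.33), and its other probe by 0.04.

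**Figure D3:**
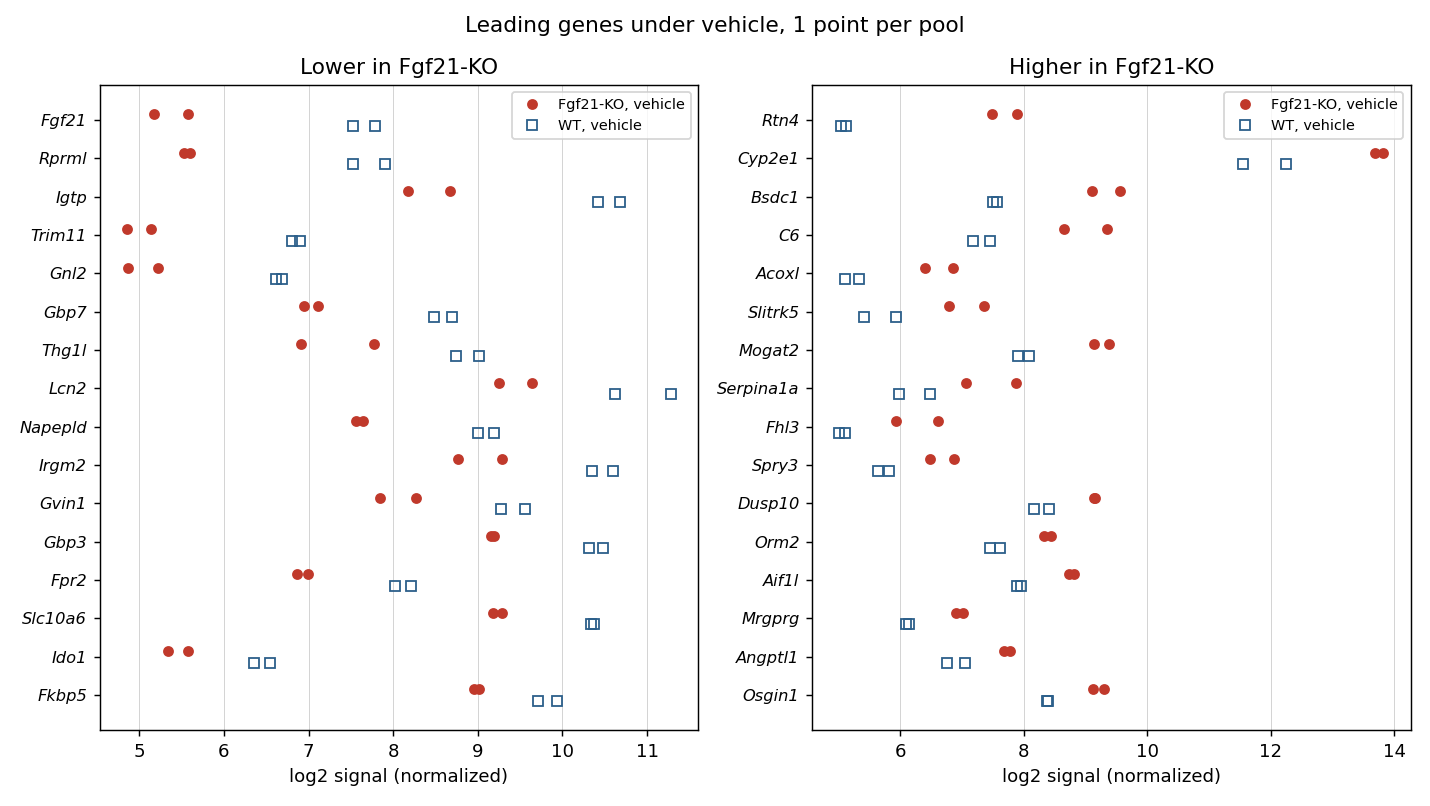
Log2 signals of the 32 leading genes are shown for the 4 vehicle pools, with genes lower in Fgf21-KO on the left and genes higher on the right. Filled red circles are Fgf21-KO pools and open blue squares WT pools, and no gene overlaps because non-overlap was part of how they were chosen (Igtp at 8.67 and 8.18 in Fgf21-KO against 10.4 and 10.68 in WT).

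The rosiglitazone pools come from other animals, and the genotype differences of the 32 leading genes were looked up there. The difference kept its sign in 28 genes, and in 25 of these it had an unadjusted p under 0.05. Of all probes, 7.75% were higher and 8.1% lower at that p. Each gene has the same SE under both treatments, and choice by a small vehicle p favours a small SE. The shares of all probes are therefore no equal yardstick for this count. In 25 the pools did not overlap in the same direction, where 22.3% of all probes were apart on the higher side and 24.1% on the lower. Of the 16 genes higher under vehicle, 15 did so. Of the 16 lower genes 10 did so. These were 10 of the 11 that are not interferon-inducible GTPases, Fgf21 itself among the 11, and 0 of the 5 that are. Rtn4 differed by 3.33 and Rprml by -2.20 under rosiglitazone, beside 2.60 and -2.15 under vehicle. Napepld differed by -0.999 beside -1.50, Slc10a6 by -0.99 beside -1.12, and Fkbp5 by -0.91 beside -0.84. The exception among the higher genes was Serpina1a, at -0.33 under rosiglitazone. Without the first WT rosiglitazone pool, the one that stands apart, the count of 25 at that p was 23, and without the second it was 21. The interaction passed the adjusted threshold in none of the 32, and 9 had an unadjusted interaction p under 0.05, where 4.95% of all probes did. The vehicle values that chose these genes also enter the interaction, so this count is no independent evidence.

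Clock genes lay on both sides of WT. The core loop of the clock pairs Arntl (Bmal1) with Clock to drive Dbp, the Per genes and Nr1d1 and Nr1d2, and the repressor Nfil3 runs against Dbp. Of 14 clock genes tested, 5 were lower and 2 were higher at an unadjusted p under 0.05, beside 2.43% and 2.33% of all probes. The median was -0.13. Dbp read 9.83 and 10.07 in Fgf21-KO and 10.84 and 11.11 in WT (difference -1.03, SE 0.25). Dbp also starts 0.091 Mb from Fgf21 on chromosome 7, and whether this has a part in its difference was not tested. Per2 read 8.91 and 9.18 in Fgf21-KO and 9.73 and 9.84 in WT, and its other probe differed by -0.72 beside -0.74. The other lower genes were Nr1d2 (-0.76), Per1 (-0.63) and Nr1d1 (-0.48). The 2 higher were Nfil3, at 10.87 and 10.63 in Fgf21-KO and 10.14 and 9.75 in WT, and Arntl, with a difference of 0.49 (SE 0.18). Under rosiglitazone Dbp (-0.74) and Per2 (-0.65) were again lower, while Arntl differed by -0.14. The time of tissue collection is not given in the sources used here, so its part was not tested. The 12 clock genes with a window have 17 windows. The E-box CACGTG, which Arntl and Clock bind, lay in 4 of the 17 (3 genes) and in 7.15% of all windows. The D-box TTATGTAA, which Dbp binds, lay in 0 of the 17, and in 0.938% of all.

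Genes of cholesterol synthesis lay above WT. All 14 tested had a difference above 0, with a median of 0.41, and in 5 the unadjusted p was under 0.05, where 2.33% of all probes were higher at that p. Sqle, which oxidises squalene and is a control point of the pathway, read 9.84 and 9.66 in Fgf21-KO and 9.07 and 9.05 in WT (difference 0.69, SE 0.17), and its other probe differed by 0.56 (SE 0.57). Msmo1, a sterol demethylase, read 10.16 and 10.21 in Fgf21-KO and 9.74 and 9.60 in WT. Sc5d (0.45), Dhcr7 (0.41) and Mvd (0.56) were the other 3. In 11 of the 14 the pools did not overlap, where 20.4% of all probes were apart on the higher side. Without normalization between arrays the list median under vehicle was 0.0567. Under rosiglitazone it was 0.23 with 4 genes higher at that p, where 7.75% of all probes were. Fatty acid and triglyceride synthesis had 17 of 21 genes above WT with a median of 0.16, 2 of them at that p. These were Thrsp, a nuclear protein that tracks lipogenesis, with a difference of 0.63 (SE 0.14), and Acss2, which makes acetyl-CoA from acetate (difference 0.60, SE 0.22). Fasn, the fatty acid synthase, differed by 0.57 (SE 0.26). Under rosiglitazone this list had a median of 0.02.

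**Figure D4:**
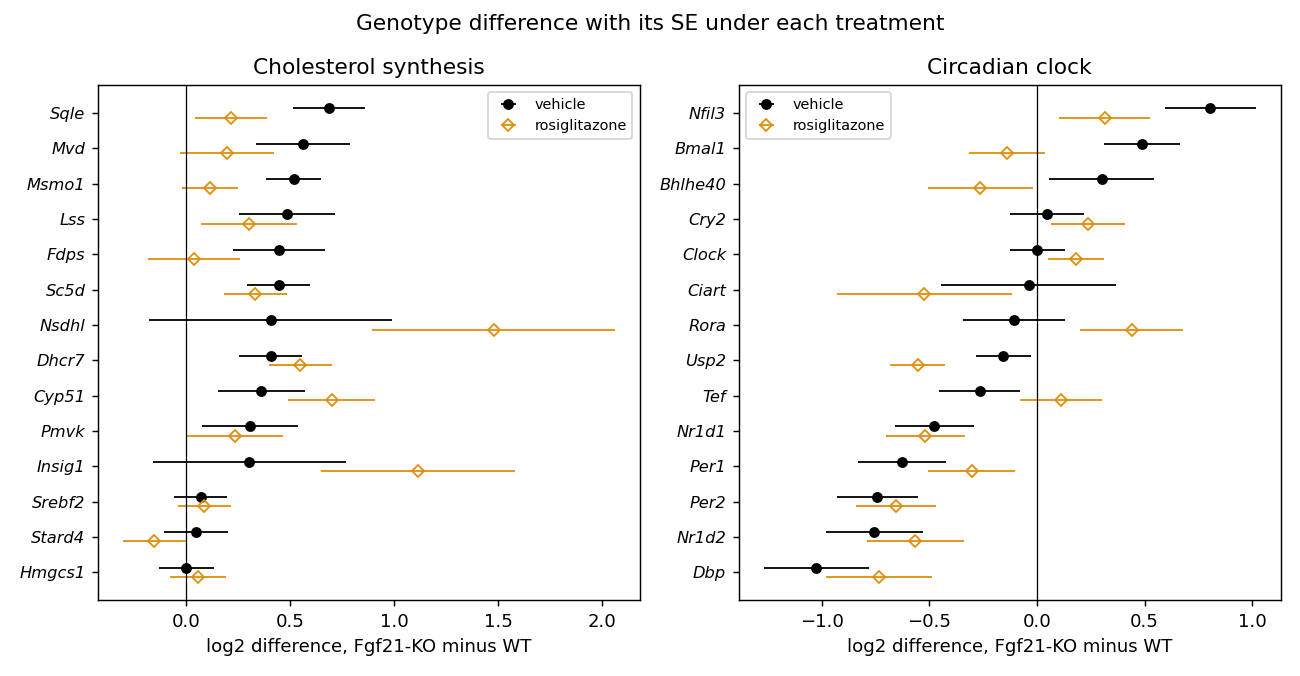
The horizontal axis gives the log2 difference, Fgf21-KO minus WT, with its SE as a bar, for cholesterol synthesis genes (left) and clock genes (right). Black circles are the vehicle pools and open orange diamonds the rosiglitazone pools, and Sqle (0.69) and Dbp (-1.03) stand at the ends under vehicle.

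The growth factor, matrix and immune lists held a few genes each. In the IGF axis, Igfals, which holds IGF in its circulating complex, differed by 0.88 (SE 0.27), and Igf1 by 0.39 (SE 0.16), 2 of 12 genes at an unadjusted p under 0.05. Of 30 extracellular matrix genes 4 were higher and 0 lower at that p. Col6a2, a chain of the microfibril collagen of fat, read 12.60 and 12.34 in Fgf21-KO and 11.72 and 11.80 in WT, and Col4a2, of basement membrane, differed by 0.46. Of 21 chemokines and cytokines 11 lay above and 10 below WT (median 0.04), and 4 were lower and 0 higher at that p, beside 2.43% and 2.33% of all probes. Ccl12, which attracts monocytes, differed by -0.72 (SE 0.14), with the other probe at -0.91. Of 11 complement genes 2 were lower and 1 higher. C1qb, part of the recognition molecule that macrophages make, read 11.76 and 11.85 in Fgf21-KO and 12.66 and 12.66 in WT, and C1qa differed by -0.53, while C6 was the higher one. In the acute phase list Orm2 and Orm1 (0.42) were higher and Lcn2 was lower. Of 14 macrophage markers 1 was lower at that p, the haemoglobin scavenger receptor Cd163 at 9.47 and 9.79 in Fgf21-KO and 10.26 and 10.30 in WT, and the list median was -0.08.

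Mast cell markers were lower in 6 of 7 genes with a median of -0.42. Where 2.43% of all probes were lower at an unadjusted p under 0.05, 2 of the 7 were. These were the proteases Cma1 (-0.42, SE 0.15) and Mcpt4 (-0.37, SE 0.13). The list median was 7.20 and 7.05 in Fgf21-KO and 7.50 and 7.49 in WT. Under rosiglitazone the median difference was -0.997, with 6 of 7 lower at that p, where 8.1% of all probes were.

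Several lists of fat metabolism showed medians close to that of all probes. Of all probes, 2.33% were higher and 2.43% lower at an unadjusted p under 0.05. The 24 PPARγ targets had a median of -0.01, with 12 higher and 12 lower. The 1 at an unadjusted p under 0.05 was Fabp4, the fatty acid binding protein of adipocytes, whose tested probe was dim and above background on 0 of 4 Fgf21-KO and 4 of 4 WT arrays (at least 1.31-fold lower). No member passed that p among 10 adipokines (Adipoq at 14.99 and 15.08 in Fgf21-KO and 15.29 and 15.21 in WT), 13 thermogenic genes, 23 genes of fatty acid oxidation or 41 of oxidative phosphorylation. Their medians were -0.04, 0.07, -0.05 and -0.06. In the last list 26 of 41 genes lay below WT. Of 18 genes of the tricarboxylic acid cycle 1 did (Idh2, -0.32), and of 17 of insulin signalling 1 did (Gsk3a, -0.59, detected on 2 of 4 Fgf21-KO arrays). Lists of heat shock and immediate early genes, the unfolded protein response, and proliferation had 0 members at that p, with medians of -0.05, 0.01 and 0.08. Of 25 glutathione genes, Mgst2 alone did (0.50). Over all 38 lists 536 genes were tested and 12.1% had an unadjusted p under 0.05, where 4.76% of all probes did. These lists were drawn up with earlier results in view, so the 2 shares are no equal comparison.

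**Figure D5:**
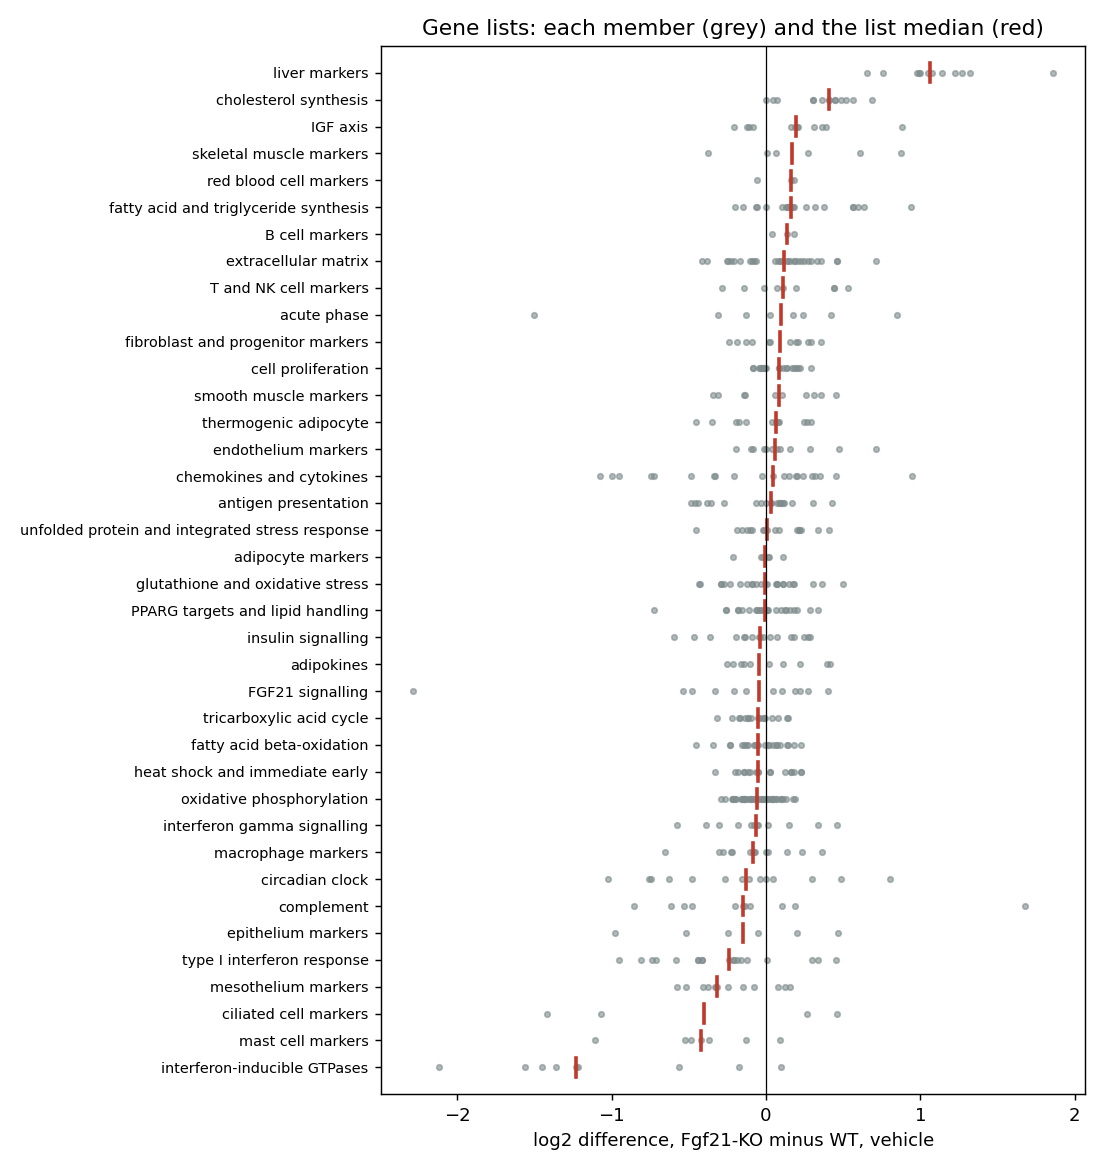
Each line is 1 gene list, each grey point the log2 difference (Fgf21-KO minus WT, vehicle) of 1 tested gene by its brightest probe, and the red bar the list median. The liver markers (median 1.06) and cholesterol synthesis (0.41) stand at the top and the interferon-inducible GTPases (-1.23) at the bottom.

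Markers of some other cell types varied between pools of 1 genotype. Liver markers had a median difference of 1.06 with all 12 above WT, but the list median was 7.82 and 11.89 in the 2 Fgf21-KO pools and 8.04 and 10.08 in the 2 WT pools. The median difference was -1.04 without the second Fgf21-KO pool and 3.02 without the first, and 2.0 without the second WT pool and 0.133 without the first. Ttr, a plasma protein made by liver, read 8.36 and 12.52 in Fgf21-KO and 8.19 and 10.54 in WT. Cyp2e1, on this list, read 13.82 and 13.69 in Fgf21-KO and 11.54 and 12.24 in WT. Serpina1b, also on it, read 14.08 and 14.60 in Fgf21-KO and 12.97 and 13.44 in WT. In both genes the 2 Fgf21-KO pools lay above the 2 WT pools, which for Cyp2e1 was part of how it was chosen. In both the second WT pool was the higher of the 2, as in the list. The second Fgf21-KO pool was the higher for Serpina1b, as in the list, but not for Cyp2e1. The second Fgf21-KO vehicle pool also stood apart on the first component of the 4 vehicle pools (48.1% of the variance). Whether these RNAs have a part in the differences of Serpina1a, C6 or the acute phase genes was not tested. Mesothelium markers had a median of -0.32 and 0 of 13 at an unadjusted p under 0.05. Ciliated cell markers (4 genes, median -0.40) were at 6.33 and 5.87 in Fgf21-KO and 5.96 and 7.06 in WT. Medians lay between -0.15 and 0.17 for epithelium, T and NK cells, B cells, endothelium, smooth muscle, skeletal muscle, fibroblasts and red blood cells. Among them Wfdc2, a secreted protein of epithelia, differed by -0.98 (SE 0.30) at 5.95 and 6.77 in Fgf21-KO and 7.14 and 7.54 in WT.

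Genes next to Fgf21 on chromosome 7 were described apart, both genotypes being of mixed strain. Within 5 Mb of Fgf21, 81 genes were tested (GRCm38.p6 annotation), and 5 had an unadjusted p under 0.05 (6.17%), 2 of them higher and 3 lower. The share was 4.25% of 682 genes on the rest of the chromosome and 4.66% of 8776 genes elsewhere, so the neighbours stood close to the background. With median scaling the count was 3 of these genes, and without either WT rosiglitazone pool it was 9. Without the second Fgf21-KO vehicle pool it was 2. The named neighbours were Vstm2b (-1.06), Dbp (-1.03) and Cd33 (-0.32) on the lower side, and Mrgpra2b (0.62), Tsg101 (0.36) and Ptpn5 (0.61, unadjusted limma p above 0.05) on the higher. Some named genes also lie close together elsewhere. On chromosome 4, Fhl3 (higher), 9930104L06Rik (lower) and Gnl2 (lower) start at bases 124695964, 124936984 and 125029989. Bsdc1 (higher) starts at base 129461679 of that chromosome. Whether linked strain differences have a part in these genes was not tested.

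Probes seen in 1 genotype alone were few. 21 probes were detected on all 4 Fgf21-KO vehicle arrays and on none of the 4 WT vehicle arrays, and 17 the other way. Of the 21, 4 kept both sides under rosiglitazone (all 4 Fgf21-KO arrays and no WT array), and of the 17, 2 did. Beside Rtn4, Acoxl and Fhl3, the first group held Batf3, a factor of dendritic cells, at least 1.43-fold higher in Fgf21-KO. The second group held Trim11, Gnl2, 9930104L06Rik (at least 1.88-fold lower in Fgf21-KO) and Doc2b, a calcium sensor of vesicle fusion (at least 1.37-fold lower).

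The deposited statistics can be set beside these values. In the authors' deposited table, 829 of 2661 rows (31.2%) were flagged for Fgf21-KO over WT after a Bonferroni correction, 748 of them lower and 81 higher. Its group means equalled those of the non-normalized signals within 0.1% in 2460 of the 2472 rows that could be matched, and those of the normalized signals in 0. The median log2 ratio of all probes was -0.273 without normalization and -0.003 with it. In the authors' deposited table, Igtp had a ratio of 0.246, Gbp3 of 0.399 and Cyp2e1 of 2.99. The leading genes Mrgprg (1.08), Acoxl (1.23), Slitrk5 (1.27) and Aif1l (1.29) were not flagged there. Of its flagged rows tested here, all 705 lower ones also had a difference below 0 here, 184 of them at an unadjusted p under 0.05, with a median of -0.34. All 72 higher ones had a difference above 0 here, 20 at that p. Both sets of values come from the same arrays, so the shared signs are no independent evidence.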

How the data were processed

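The sample titles gave group, pool and technical repeat. Per the file headers, the deposited non-normalized table holds mean bead signals (intensity, linear scale), detection p-values and bead counts. A deposited normalized table of intensity was an alternative, and the authors' statistics table gave group means, a ratio of means and p-values. The upstream software is not given in the sources used here, and 64 columns were not used. Background was corrected by nec of limma 3.58.1 in R 4.3.3 with an offset of 16. Quantile normalization and log2 followed, and the 2 arrays of each pool were averaged. Probes were kept where at least 4 of the 16 arrays had a detection p no higher than 0.05. Of 25697 probes, 23978 had 1 gene symbol, none had several and 1719 had none. lmFit and eBayes were fitted to 4 group means (4 residual degrees of freedom, prior 2.75), two-sided, with Benjamini-Hochberg adjustment over all probes. Precision is limited by 2 pools per group. A list gene stands in by its brightest probe. Signals not above background on any array of a group give a bound against the lowest signal called above background.

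Named genes were Fgf21, Klb and Fgfr1, the 12 lower and 12 higher genes of smallest p without overlap of pools, 4 more a side by size, and up to 2 a side of each list, of the neighbours of Fgf21 (3 a side) and of probes seen in 1 genotype (4 a side). Other list members were named after their values were seen. Members and lists were chosen with earlier results of these data known. On simulated data for Fgf21-KO minus WT under vehicle (13759 probes), 30% of 100 probes shifted by 1 log2 unit and 86% of 100 shifted by 2 passed the adjusted threshold. The simulated noise of a probe was normal and equal in all 4 groups, with no pool standing apart. In the data the median SD between pools was 0.230 in the WT rosiglitazone group and 0.0957 to 0.110 in the others. The simulated shares may therefore not hold for the real arrays, where 0 probes passed.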

Additional observations from a re-analysis of the deposited data

Results flagged for a closer look

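In 14 named genes both Fgf21-KO pools lay on one side of both WT pools under vehicle and on the opposite side under rosiglitazone. For each the value is the interaction, the genotype difference under rosiglitazone minus that under vehicle, on the log2 scale. None of the interactions passed the adjusted threshold, so the opposite directions are not shown by a test. Under vehicle, the pools of 20.4% of all probes were apart on the higher side and of 22.5% on the lower. Under rosiglitazone these shares were 22.3% and 24.1%. The share of all probes that changed side was not counted. The leading genes were also chosen for pools apart under vehicle, so the count of 14 is a description only. Among the interferon genes, the value was 2.35 for Igtp, 1.42 for Gbp3, 1.56 for Gvin1, 1.68 for Ifi47, 1.30 for Gbp10, 1.63 for Cxcl9, 0.73 for Nlrc5 and 0.61 for Irf1, with Fgf21-KO below WT under vehicle and above it under rosiglitazone. Adipoq (0.38) and Cd33 (0.40) went the same way. The value was -1.57 for Serpina1a, -0.69 for Rbp4, -1.02 for Cd3e and -1.22 for Batf3, with Fgf21-KO above WT under vehicle and below it under rosiglitazone.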

How the results depend on the processing

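The probes past the adjusted threshold numbered 0 as reported. They were 3 without background correction, 2 with an offset of 50, 3 in the authors' normalized table, 3 with trend and robust fitting and 41 with all arrays kept and duplicateCorrelation (where Fgf21, at -2.28, passed with an adjusted p of 0.00627). Without normalization between arrays, an alternative chosen after seeing the data, they were 8, and unadjusted calls were 29 higher and 3313 lower. Unadjusted calls (320 higher and 335 lower as reported) were 179 higher with median scaling, 622 and 686 without a probe filter, and 633 and 710 with the 2 vehicle groups alone. Leaving out 1 pool at a time gave 188 to 649 higher and 200 to 715 lower, with 0 past the adjusted threshold. Replicate numbers are not shown to pair the pools (correlation of deviations 0.273 between the vehicle groups and -0.103 to 0.106 between other pairs of groups). With the replicate block 0 probes passed, with 315 higher and 339 lower unadjusted, and the lowest adjusted p was 0.373. Members of all lists at an unadjusted p under 0.05 numbered 158 without normalization, and 44 to 97 leaving out 1 pool. The count near Fgf21 was 3 with median scaling, 9 with the vehicle groups alone, 15 without normalization and 2 to 9 leaving out 1 pool. The leading genes that repeated under rosiglitazone were 16 without normalization and 20 to 25 leaving out 1 pool. Fgf21 stayed between -2.49 and -2.08 leaving out 1 pool. Of 108 named genes, 14 changed sign in any of the 20 alternatives. Without normalization the differences turned in Klb (-0.16), Fgfr1 (-0.13), Zbp1 (-0.0899), Psat1 (-0.0341), Birc5 (-0.14), Cd3e (-0.0703), Cd79b (-0.19), Synpo2 (-0.0111), Mrgpra2b (-0.0215), Ptpn5 (-0.0362), Irgm1 (-0.14), Dhcr7 (-0.0303) and Fasn (-0.0193). Leaving out 1 pool, Klb ran from -0.0772 (without the second WT vehicle pool) to 0.29, and Cd79b from -0.25 (without the first Fgf21-KO vehicle pool; -0.11 without the first WT one) to 0.61. Ttr ran from -1.01 (without the second Fgf21-KO vehicle pool; -0.10 without the first WT one) to 3.15. The cause was not tested. The medians of 11 of the 38 lists kept their sign in the alternatives run for them, among them the GTPases (-1.41 to -1.003) and cholesterol synthesis (0.0567 without normalization between arrays, and otherwise 0.31 to 0.47).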
